A study of Mus musculus with 16 samples.

Results

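The regions described here are stretches of chromatin 600 to 1000 bp wide that were enriched by an antibody to succinyllysine in mouse embryonic fibroblasts. They were chosen by 2 measured properties, their width in the deposited list of succinyllysine regions and the absence of any base in common with the deposited H3K27me3 regions. Of 10888 succinyllysine regions, 1097 had such a width, 52 of these touched H3K27me3, and the other 1045 are the members. Together they covered 834.7 kb. Of the 1045, 484 touched an H3K4me3 region, with at least 1 base in common, and 561 did not. These groups are set side by side below.

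The chromatin came from immortalized mouse embryonic fibroblast lines in which doxycycline (1 µg/mL) turns on a Cre recombinase. The experimental line was R26M2rtTA/+;TetOcre;Sdhcfl/fl, with 2 floxed copies of Sdhc, and the control line was R26M2rtTA/+;TetOcre;Sdhcfl/wt, with 1 floxed copy. Both lines carry the same rtTA and Cre transgenes, and both received doxycycline and were sampled at day 16. There were 16 samples, 2 of each line for each antibody (succinyllysine, H3K4me3 and H3K27me3) and 2 of each line without antibody as input. The regions of an antibody stand in 1 list that covers both lines (4 ChIP samples), so nothing below compares fl/fl with fl/wt cells, and a region may have been called in either line or in both. The lists hold positions on mm10 only, on a grid of 100 bp, without heights or read counts, so the depth behind a region is unknown. Each list is therefore a single observation with no replicate check.

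Succinyl-CoA, an intermediate of the tricarboxylic acid cycle, can donate a succinyl group to lysine, which changes the charge of the side chain from positive to negative. Succinate dehydrogenase oxidises succinate to fumarate, and Sdhc encodes a subunit that anchors the enzyme in the inner mitochondrial membrane. H3K4me3 is found at the starts of active and poised genes, usually on the nucleosomes that flank a nucleosome-depleted start site. H3K27me3 is the mark of Polycomb-repressed chromatin. The antibody name refers to succinylated lysine without naming a protein, so a region need not mark a histone. As a check of the cell type, the H3K4me3 list had a region at an end of 7 of 8 fibroblast marker genes, with H3K27me3 at 0 of these 8. Hepatocyte, haematopoietic, muscle and endothelial markers (3 each) had H3K4me3 at 0, while 3 of 4 epithelial and 1 of 3 neuronal markers had it; H3K27me3 lay at 2 of those 4 and 2 of those 3. No marker gene of any of these types had a member at an end.

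The sequences around a few starts are given as examples and do not stand for their groups. The windows below are the 300 bp from 250 bp before to 50 bp after an annotated start, from RefSeq on GRCm38.p6, whose chromosome coordinates are those of mm10, read 5′ to 3′ along the gene. Capitals mark matches, on either strand, to the motifs that were searched. The first set belongs to genes with a member touching H3K4me3, and they are the first named genes, in the order of the gene lists, that have a window. Sirt6 encodes a nuclear deacylase of the sirtuin family, and its member, chr10:81627601-81628600, covered 216 of the 300 bases. Rpl41 and Rpl13 encode proteins of the large ribosomal subunit. The Rpl41 member, chr10:128548101-128549100, lay wholly downstream of the window, whereas the Rpl13 member, chr8:123101601-123102400, covered all 300 bases.
Sirt6 (chr10:81627517-81627816, minus strand): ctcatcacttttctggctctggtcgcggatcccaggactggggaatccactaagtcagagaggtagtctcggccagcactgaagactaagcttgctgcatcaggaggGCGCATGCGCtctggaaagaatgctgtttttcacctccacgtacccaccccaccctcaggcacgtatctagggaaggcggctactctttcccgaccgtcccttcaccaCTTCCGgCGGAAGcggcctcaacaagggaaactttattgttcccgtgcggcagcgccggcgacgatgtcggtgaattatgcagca
Rpl41 (chr10:128549119-128549418, minus strand): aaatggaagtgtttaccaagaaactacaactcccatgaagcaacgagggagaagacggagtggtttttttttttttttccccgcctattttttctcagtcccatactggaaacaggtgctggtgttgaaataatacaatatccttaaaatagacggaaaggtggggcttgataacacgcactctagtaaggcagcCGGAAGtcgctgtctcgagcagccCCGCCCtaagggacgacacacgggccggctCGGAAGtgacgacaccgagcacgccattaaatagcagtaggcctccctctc
Rpl13 (chr8:123102100-123102399, plus strand): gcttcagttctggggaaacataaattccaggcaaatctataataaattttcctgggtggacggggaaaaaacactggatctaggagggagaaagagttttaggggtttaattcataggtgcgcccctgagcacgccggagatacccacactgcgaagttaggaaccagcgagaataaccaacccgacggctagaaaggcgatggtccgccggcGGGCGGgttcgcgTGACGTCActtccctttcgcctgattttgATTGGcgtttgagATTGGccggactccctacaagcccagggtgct

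The Sirt6 window held 2 ETS cores (CGGAAG) and overlapping NRF1 cores (GCATGCGC) on both strands, with 57.3% G and C and 20 CpG. The Rpl41 window held 2 ETS cores and a GC box (GGGCGG), with 49.3% G and C and 16 CpG. The Rpl13 window held a GC box, 2 CCAAT boxes and 1 cAMP response element (TGACGTCA), with 52.7% G and C and 19 CpG.

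The second set was taken in the same way from genes with a member that did not touch H3K4me3, all 3 with the member upstream of the start. H2ac4 encodes a replication-dependent histone H2A, Actn4 an actin-crosslinking alpha-actinin and Arf2 a small GTPase of membrane traffic. Their members were chr13:23749901-23750900, chr7:28962601-28963500 and chr11:103965301-103966300. The nearer edge lay 188 bp from the start of H2ac4, 269 bp from that of Actn4 and 425 bp from that of Arf2. These members were 200, 200 and 300 bases from H3K4me3, against a median of 22500 bases over all members not touching it.
H2ac4 (chr13:23750838-23751137, plus strand): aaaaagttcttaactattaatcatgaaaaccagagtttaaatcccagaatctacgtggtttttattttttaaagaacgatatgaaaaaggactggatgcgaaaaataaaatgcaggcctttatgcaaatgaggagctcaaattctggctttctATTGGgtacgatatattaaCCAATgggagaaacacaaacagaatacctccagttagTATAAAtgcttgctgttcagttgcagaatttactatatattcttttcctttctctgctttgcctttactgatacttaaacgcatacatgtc
Actn4 (chr7:28962283-28962582, minus strand): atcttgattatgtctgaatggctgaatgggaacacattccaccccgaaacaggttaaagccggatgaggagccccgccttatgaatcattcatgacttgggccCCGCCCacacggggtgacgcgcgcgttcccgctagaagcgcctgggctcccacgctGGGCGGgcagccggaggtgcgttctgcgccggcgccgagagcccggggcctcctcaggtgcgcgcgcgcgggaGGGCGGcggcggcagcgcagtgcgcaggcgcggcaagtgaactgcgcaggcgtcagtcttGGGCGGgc
Arf2 (chr11:103966475-103966774, plus strand): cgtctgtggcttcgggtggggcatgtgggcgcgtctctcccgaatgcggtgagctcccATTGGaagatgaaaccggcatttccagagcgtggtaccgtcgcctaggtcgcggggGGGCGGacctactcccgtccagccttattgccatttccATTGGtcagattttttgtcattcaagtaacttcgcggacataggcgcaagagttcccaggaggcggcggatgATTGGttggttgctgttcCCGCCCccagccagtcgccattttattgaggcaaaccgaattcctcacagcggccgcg

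H2ac4 had a window of 33.3% G and C with 5 CpG, a TATA box (TATAAA) and 2 CCAAT boxes. Actn4 had 68.0% G and C, 35 CpG and 4 GC boxes. Arf2 had 58.7% G and C, 25 CpG, 2 GC boxes and 3 CCAAT boxes. Over the genes of each group, the median was 21 CpG per window with a touching member and 12.5 with one not touching H3K4me3. A match is a run of letters and was not tested as a binding site.

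The first comparison asks how often succinyllysine regions of this width lay on H3K4me3. Of the 1045 members, 46.3% touched H3K4me3 (exact 95% interval 43.3 to 49.4%), against 16.9% of all 10888 succinyllysine regions. Outside H3K27me3, the share was 4.31% of the 7245 regions of 200 to 500 bp and 46.5% of the 1938 regions over 1000 bp. The share differed within the width range. At 600 bp, 55 of 206 regions touched H3K4me3 (26.7%). The share was 47.0% of 202 regions at 700 bp, 51.8% of 226 at 800 bp, 53.4% of 221 at 900 bp and 52.1% of 190 at 1000 bp. The members of 700 bp and more thus had nearly equal shares with overlapping intervals, and those of 600 bp stood below them. Just outside the limits, 46 of 400 regions of 500 bp (11.5%) and 104 of 187 regions of 1100 bp (55.6%) touched H3K4me3.

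**Figure D1:**
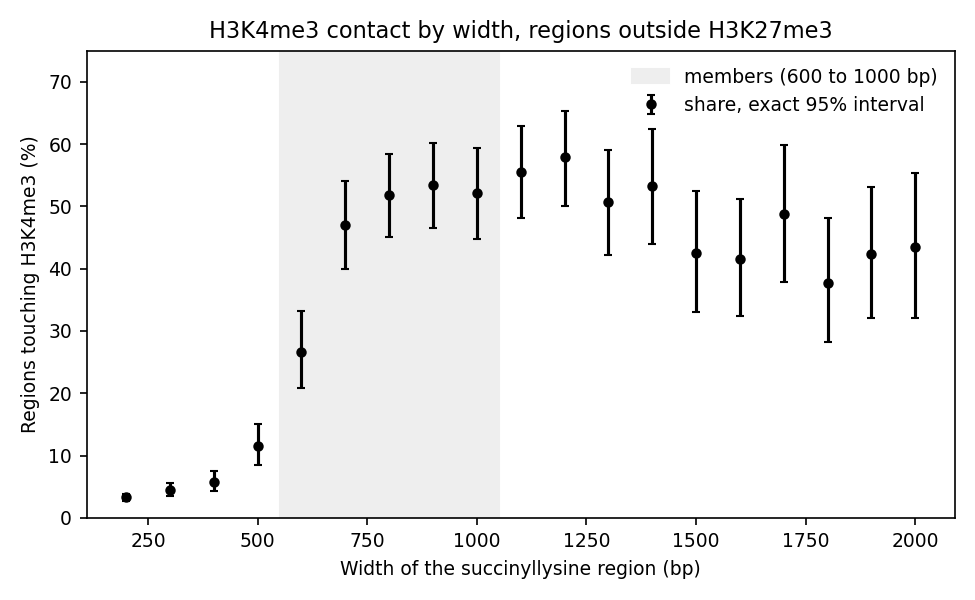
Share of succinyllysine regions outside H3K27me3 that touched H3K4me3 (vertical axis, %) by the width of the region (horizontal axis, bp); points are shares in the single list, bars are exact 95% intervals and the grey band holds the members. The share was 11.5% at 500 bp, 26.7% at 600 bp and between 47.0% and 53.4% from 700 to 1000 bp.

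The loss of regions to H3K27me3 ran the other way over the same widths. H3K27me3 was touched by 10.8% of the 231 regions of 600 bp, 6.05% of the 215 of 700 bp, 3.0% of the 233 of 800 bp, 1.78% of the 225 of 900 bp and 1.55% of the 193 of 1000 bp. Since members were chosen for sharing no base with H3K27me3, their distances to it are a description only. The median to the nearest such region was 99750 bases for those touching H3K4me3 and 119800 bases for those not touching it, and it was 166550 bases for regions over 1000 bp outside H3K27me3. Within 5000 bp there was an H3K27me3 region for 24 of the 484 touching members (4.96%) and 55 of the 561 others (9.80%), in all 7.56% of members, and for 1.14% of the regions over 1000 bp and 26.3% of all succinyllysine regions.

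The second comparison asks which members lay at genes. Two-sided Fisher's exact tests compared 3 features between the groups, with Benjamini-Hochberg adjustment over the 3. Regions are not replicates and neighbouring regions are not independent, so these p-values cover counting error in 1 list only. An end of a protein-coding gene lay within 1000 bp of 320 of 484 members touching H3K4me3 (66.1%, 61.7 to 70.3%). Of those not touching, 39 of 561 had one (6.95%, 4.99 to 9.38%). The background over all succinyllysine regions was 10.5%. The odds ratio was 26.1 (adjusted p = 4.16e-97, Fisher's exact test). The groups were split by H3K4me3, and 45.7% of all H3K4me3 regions had a gene end within 1000 bp. The test therefore does not separate the members from H3K4me3 itself. The nearest gene end was the annotated start for 241 of the 320, the 3′ end for 22, and on a gene of unknown strand for 57. For the 39 the counts were 24, 9 and 6.

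The rest of the members fell differently inside and outside genes. Of the touching members, 104 (21.5%) lay in a gene body away from its ends and 60 (12.4%) outside genes. Of those not touching, 216 (38.5%) lay in a gene body and 306 (54.5%) outside genes. Over all succinyllysine regions these shares were 27.8% and 61.8%. The median distance to the nearest gene end was 289.5 bp for touching members and 29435 bp for the others.

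At other widths the same contrast was present. Among regions over 1000 bp, 55.0% of those touching H3K4me3 and 8.97% of those not touching had a gene end within 1000 bp. Among regions of 200 to 500 bp, these shares were 14.4% and 1.67%. H3K4me3 regions were set against gene ends in the same way. Of the 465 H3K4me3 regions that touched a member, 72.5% had a gene end within 1000 bp, against 45.7% of all 26654 H3K4me3 regions. With both restricted to H3K4me3 regions of at least 2000 bp, the shares were 84.3% of 337 and 84.9% of 10492. The intervals of the last 2 shares overlapped (79.9 to 88.0% and 84.2 to 85.6%).

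Annotated starts gave the side on which a member lay. Starts came from the promoter table, which has no window on chromosome 18, so the 36 members there are left out of the values on starts. A start lay within 1000 bp of 307 of 468 touching members (65.6%) and 41 of 541 others (7.58%), with a background of 10.9% over all succinyllysine regions. The median distance was 266.5 bp in touching members and 20066 bp in the others. Most touching members near a start did not include it. Of the 307, 136 (44.3%) lay wholly upstream of the nearest start and 97 (31.6%) wholly downstream, while 74 (24.1%) ran across it. Upstream members had their midpoint at a median of -615.5 bp and their nearer edge 202.5 bp from the start. Downstream members had their midpoint at a median of 561.5 bp and their nearer edge 140 bp from the start.

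The midpoints of touching members were sparse over the start itself. Only 26 of 307 (8.47%, exact 95% interval 5.61 to 12.2%) lay within 250 bp of it, and 232 (75.6%) lay 250 to 750 bp away. In bins of 250 bp, 89 midpoints fell from 750 to 500 bp upstream, 38 from 500 to 250 bp upstream and 7 in the last 250 bp upstream. Downstream, 19 fell in the first 250 bp, 59 from 250 to 500 bp and 46 from 500 to 750 bp. These counts form a peak on each side with a trough over the start. For genes with 1 annotated start, a restriction chosen after the trough was seen, 15 of 230 midpoints (6.52%) lay within 250 bp of it.

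**Figure D2:**
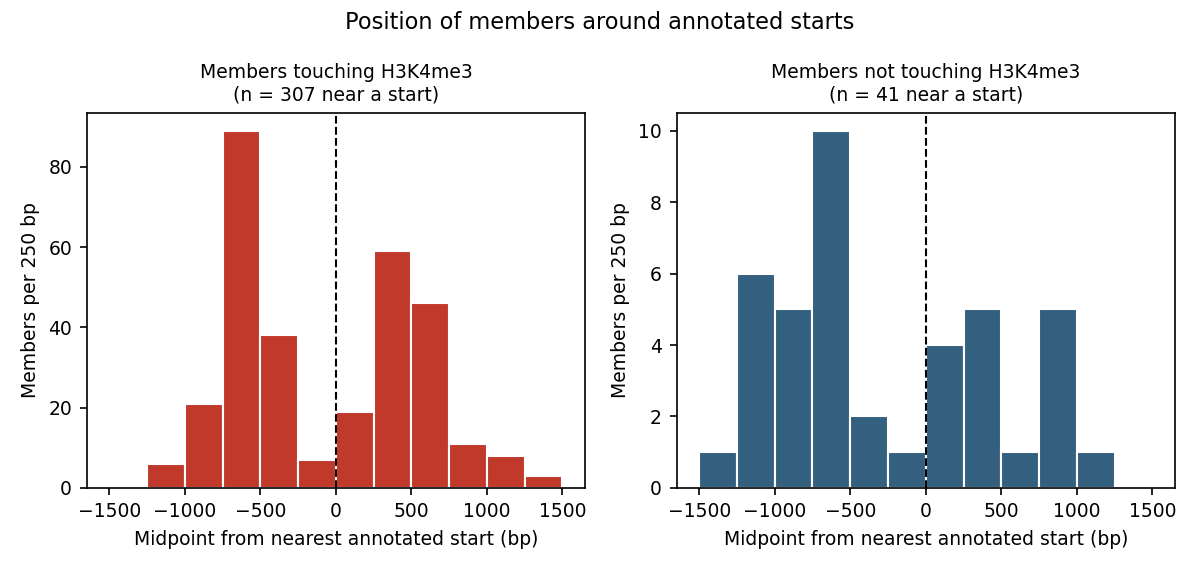
Midpoint of each member relative to the nearest annotated start (horizontal axis, bp; negative is upstream along the gene) for members touching H3K4me3 (left, n = 307) and not touching it (right, n = 41), counted per 250 bp (vertical axes, which differ in scale). The left panel has 89 members from 750 to 500 bp upstream, 7 in the 250 bp before the start and 59 from 250 to 500 bp downstream.

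The 41 members near a start but not on H3K4me3 were too few for a shape. Of these, 22 lay upstream, 10 across and 9 downstream of the start. Their midpoint was within 250 bp of the start in 5 (12.2%, exact 95% interval 4.08 to 26.2%) and 250 to 750 bp away in 18 (43.9%). Among regions over 1000 bp on H3K4me3 and near a start, 180 of 513 lay upstream, 204 across and 129 downstream, and 7.80% had their midpoint within 250 bp of it. For the 43 regions of 200 to 500 bp on H3K4me3 and near a start, the counts were 21, 2 and 20.

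Within H3K4me3, the touching members were mostly enclosed. Of the 484, 381 (78.7%) lay wholly inside the H3K4me3 region, 100 ran across one of its edges and 3 covered it. At least 50% of the member was covered in 468. The midpoint was under 0.1 of the H3K4me3 width from the nearer edge, or outside it, in 79 members (16.3%). It lay between 0.1 and 0.3 of the width from the nearer edge in 209 (43.2%) and between 0.3 and 0.5 in 196 (40.5%). The H3K4me3 regions touched were wide, with a median of 3400 bp against 1100 bp over all H3K4me3 regions. They were 465 of the 26654 in number, and the part of their width in the contact was not tested. Where the member had a start within 1000 bp, the H3K4me3 region covered that start in 263 of 307 cases (85.7%).

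**Figure D3:**
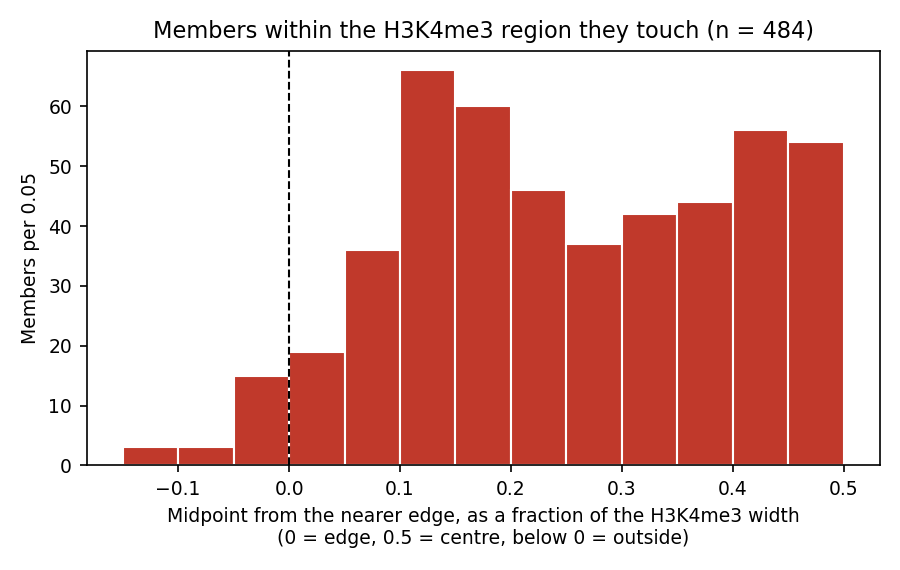
Midpoint of the 484 members touching H3K4me3, as a fraction of the width of the H3K4me3 region from its nearer edge (horizontal axis; 0 is the edge, 0.5 the centre, below 0 outside), counted per 0.05 (vertical axis). Of these, 209 lay between 0.1 and 0.3, 196 between 0.3 and 0.5, and 79 under 0.1 or outside.

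The 561 members without H3K4me3 were mostly not near misses. The median gap to the nearest H3K4me3 region was 22500 bases, with quartiles of 5600 and 57400. It was at most 1000 bp in 65 (11.6%), among them 11 that abutted an H3K4me3 region without a shared base, and over 50000 bp in 158. The farthest, chrX:170841201-170841900, lay 958900 bases from H3K4me3. The 39 at a gene end were closer, with a median gap of 700 bases.

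The third feature was crowding. Another succinyllysine region of any width lay within 5000 bp of 154 of 484 touching members (31.8%) and of 293 of 561 others (52.2%), with 32.9% as the background over all succinyllysine regions. The odds ratio was 0.427 (adjusted p = 4.01e-11, Fisher's exact test). The median gap to the next succinyllysine region was 52300 bases in touching members and 3500 bases in the others. The share of touching members was close to the background and that of the others above it. At least 2 other regions lay within 5000 bp of 58 of 484 touching members (11.98%) and 129 of 561 others (23.0%), and of 10.8% of all succinyllysine regions.

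The kind of neighbour was described without a test. A succinyllysine region over 1000 bp lay within 5000 bp of 93 touching members (19.2%) and 193 of the others (34.4%), and of 12.3% of all succinyllysine regions. Members with a neighbour of any width in that range numbered 154 and 293, so these counts also carry the difference in crowding. A neighbour that itself touched H3K4me3 lay within 5000 bp of 138 touching members (28.5%) and 51 of the others (9.09%), and of 8.36% of all succinyllysine regions, so the others were near that background. The most crowded member, chr5:145636001-145636800, had 12 other regions within 20000 bp, and its nearest annotated start, that of the cytochrome P450 gene Cyp3a41b, was 51271 bp away. Crowding at other widths was 48.9% and 65.9% over 1000 bp (touching and not touching H3K4me3) and 32.4% and 23.9% from 200 to 500 bp, so the direction in the narrowest regions was the opposite one. That difference between widths was not tested.

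**Figure D4:**
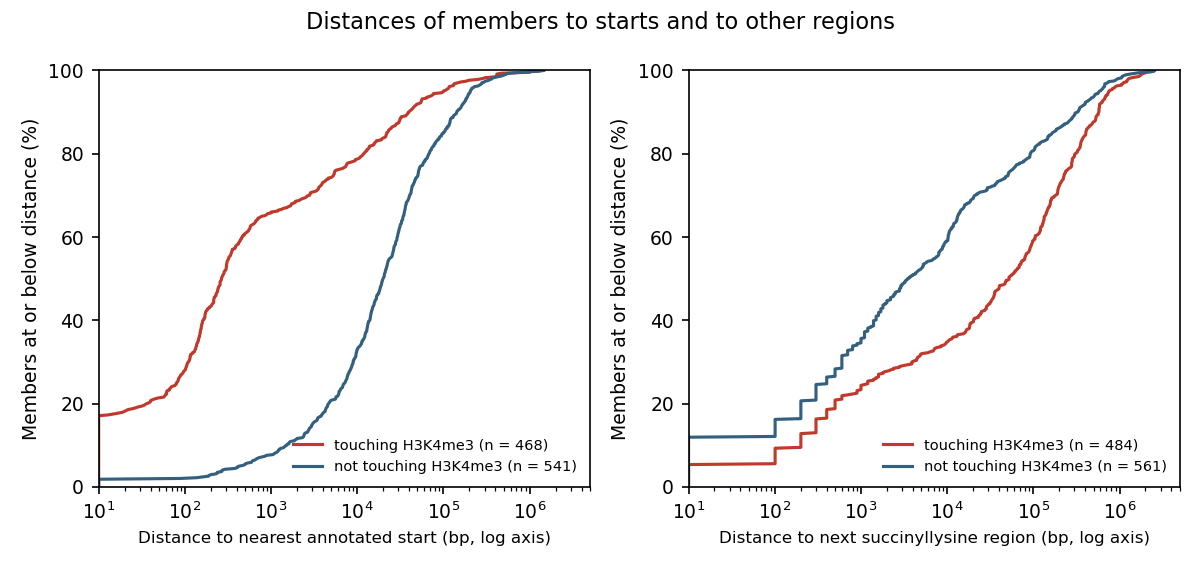
Cumulative share of members (vertical axis, %) by distance to the nearest annotated start (left) and to the next succinyllysine region (right), on log axes in bp that begin at 10, so that distances under 10 are counted at the left edge. Members touching H3K4me3 have medians of 266.5 bp and 52300 bases, and members not touching it 20066 bp and 3500 bases.

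Chromosome X held 10 of 484 touching members (2.07%) and 5 of 561 others (0.891%), against 0.606% of all succinyllysine regions. The groups did not differ detectably (odds ratio 2.35, adjusted p = 0.125, Fisher's exact test). The Y chromosome held 0 members. Chromosome 7 had the most, 61 touching and 46 not touching. It also had the most protein-coding genes, 2030 of 21887, and it held 546 of the 10888 succinyllysine regions. Over all chromosomes there were 484 and 561, and single chromosomes were not tested.

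The genes at the members were then read against 24 lists of genes. A member touching H3K4me3 lay within 1000 bp of an end of 371 of 21887 protein-coding genes (1.7%), and one not touching it at 44 genes (0.201%), with 3 genes in both. Of the 12163 genes with H3K4me3 at an end, 3.03% had a touching member, which is the closer background for that group. Succinyllysine regions of any width were at 5.42% of the protein-coding genes. The counts below describe the lists and were not tested.

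Sdhc, which carries the floxed alleles, had a member on H3K4me3. The list does not say in which line it was called, and the control line keeps a wild-type copy. It was chr1:171150601-171151500, 900 bp wide, lying wholly inside an H3K4me3 region of 4000 bp (chr1:171147801-171151800) and overlapping the gene end at 171150640. It was the 1 gene with a member among 29 of succinate dehydrogenase and the tricarboxylic acid cycle, of which 28 had H3K4me3 and 3 had a succinyllysine region of some width. That is 3.57% of the 28, near the background of 3.03%. Among 25 enzymes of acylation and deacylation, Sirt6 alone had a member, of which 60% lay in H3K4me3. None of 29 2-oxoglutarate-dependent chromatin enzymes, a family that succinate can inhibit, had one. With 28 of them on H3K4me3 and a background of 3.03%, a count of 0 does not set this list apart. Oxidative phosphorylation had 1 of 101 genes, Atp5g1, a subunit of ATP synthase, and glycolysis with targets of the hypoxia-inducible factor had 1 of 30, Ankrd37.

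Most lists of protein synthesis genes had shares above the background, but those of translation factors and aminoacyl-tRNA synthetases rest on 4 and 2 genes. Counts of this size do not set those 2 lists apart. Among genes with H3K4me3 at an end, that background is 3.03%. The shares of such genes were 9.76% for cytosolic ribosomal proteins, 5.97% for translation factors and 9.52% for aminoacyl-tRNA synthetases. Of 85 cytosolic ribosomal protein genes, 8 (9.41%) had a touching member and 0 had one off H3K4me3. Rpl13 was an example of a member reaching across the start and Rpl41 of one that began 68 bp downstream. Rpl29 also had a member. Of 73 translation factor genes, 4 had a touching member (5.48%): Eif4a1 and Eif4a2, which encode the RNA helicase that unwinds mRNA for ribosome loading, Eif4g2, a scaffold of initiation, and Eif4e2, a cap-binding protein. Their positions differed, with the Eif4a1 and Eif4a2 members beginning 123 and 133 bp downstream of the start and the Eif4e2 member ending 111 bp upstream of it. Of 21 aminoacyl-tRNA synthetase genes, 2 had one, Eprs and Mars1. Of 78 mitochondrial ribosomal protein genes, 2 had one, Mrps18b and Mrpl45 (2.56%). That is 2.60% of those with H3K4me3, close to the background of 3.03%.

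Replication-dependent histone genes had the largest share. Of 64, 14 (21.9%) had a touching member and 1, H2ac4, had one not touching H3K4me3, and 16 had a succinyllysine region of any width. Relative to the 59 with H3K4me3, the share was 23.7%, against the background of 3.03%. These genes lie in dense clusters, so 1 member can serve more than 1 gene, and several share near-identical sequence, to which short reads map ambiguously. One member, chr13:22041801-22042400, lay at H2ac11, H2bc11 and H4c9. Members were also shared by H2ac10 and H3c8, by H2bc3 and H3c3, and by H2bc9 and H3c7. The 14 genes thus do not stand for 14 separate members. The part of ambiguous mapping in the counts was not tested. The H2bc9 member, chr13:23543501-23544400, had exactly the same edges as its H3K4me3 region. H1f2 had 2 members, 1 ending 7 bp upstream of the start and 1 beginning 470 bp past the 3′ end, both in the same H3K4me3 region of 4800 bp. The H2bc6 member began 770 bp downstream of an annotated start, and the H2bc3 member ended 234 bp upstream of the H2bc3 start. The H2ac4 member was separated from H3K4me3 by 200 bases and had 2 other succinyllysine regions within 5000 bp.

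Immediate-early and growth response genes, which growth factors and stress induce within minutes to hours, came next, with 7 of 34 (20.6%) at a touching member. Relative to the 33 with H3K4me3, the share was 21.2%, against the background of 3.03%. Klf4 and Maff encode transcription factors, and Zfp36 and Zfp36l1 encode proteins that bring AU-rich mRNAs to decay. The Maff member ran across the start, the Klf4 member lay 426 bp from the gene's start, the Zfp36l1 member ended 488 bp upstream, and the Zfp36 member lay 184 bp past the 3′ end. In all, 16 of these 34 genes had a succinyllysine region of some width, against 5.42% of all protein-coding genes.

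Spliceosome and hnRNP genes had 5 of 82 (6.10%), among them Sf3a2, Snrpa and the serine/arginine-rich splicing factors Srsf4 and Srsf5. Cell cycle and DNA replication genes had 3 of 39 (7.69%): Cdt1, which loads the replicative helicase, Mcm5, a subunit of that helicase, and E2f3, a transcription factor of S-phase entry. Of the H3K4me3-marked genes these were 6.41% of 78 (spliceosome and hnRNP) and 7.9% of 38 (cell cycle), against 3.03%. Both counts are small and were not tested. Heat shock and chaperone genes had 3 of 92, Dnaja1, Dnajc7 and Hspb8. Zinc finger genes had 12 of 397 (3.02%), ubiquitin conjugation genes 2 of 103, Ube2g2 and Usp32, and vesicle traffic genes 4 of 190, Arf4, Rab30, Snx5 and Copg1. Against the 3.03% of genes with H3K4me3, the shares among the H3K4me3-marked genes of these last 4 lists (heat shock, zinc finger, ubiquitin, traffic) were 4.0%, 3.64%, 2.38% and 2.30%, near that background.

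Developmental transcription factors had 4 of 128 (3.12%), all of them Hox genes. Relative to the 74 with H3K4me3 at an end, the share was 5.41%, against the background of 3.03%. Foxc1, which is not on this list, also had a touching member. The Hoxd13 and Hoxd11 members lay in a single H3K4me3 region of 31100 bp, and the Hoxa3 and Hoxa5 members in regions of 14200 and 5900 bp. Hox genes pattern the body axis and keep their regional code in cultured fibroblasts. Of the 128 genes, 75 had H3K27me3 at an end, but members share no base with H3K27me3 by their definition.

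Lists with 0 touching members were 34 fibroblast and extracellular matrix genes, 26 contractile and actin genes, 19 genes of CDK inhibitors and the p53 pathway, 51 proteasome genes, 58 genes of RNA polymerases and Mediator, and 1521 olfactory, vomeronasal and keratin-associated genes. H3K4me3 was at 30 of the fibroblast, 24 of the contractile, 16 of the CDK inhibitor and p53, 47 of the proteasome, 57 of the polymerase and Mediator and 48 of the olfactory group genes. At the background of 3.03%, lists of these sizes hold few genes with a member, and the zeros do not set them apart. Succinyllysine regions of any width were at 12 of the 34 fibroblast, 8 of the 26 contractile and 5 of the 19 CDK inhibitor and p53 genes. They were at 2 of the 51 proteasome, 3 of the 58 polymerase and Mediator and 42 of the 1521 olfactory group genes. The share over all protein-coding genes was 5.42%, and these counts were not tested. Actn4 was the contractile gene with a member that did not touch H3K4me3. It lay 200 bases from the nearest H3K4me3 region.

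**Figure D5:**
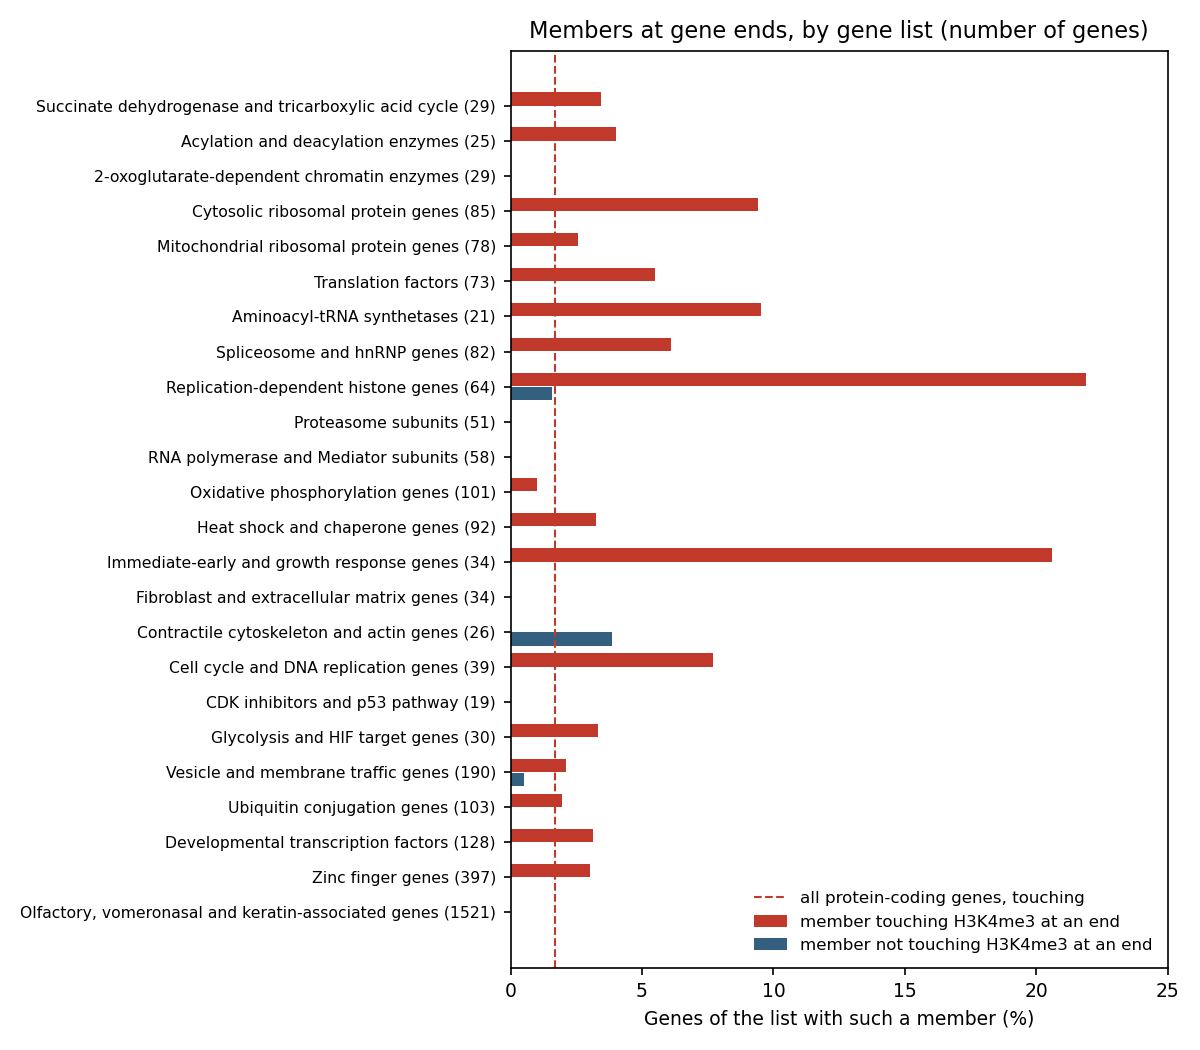
Percent of the genes of each list (number of genes in brackets) with a member touching H3K4me3 (upper bar) or not touching it (lower bar) within 1000 bp of a gene end; the dashed line is the 1.7% of all protein-coding genes with a touching member. Histone genes (21.9%) and immediate-early genes (20.6%) reach farthest.

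Many members at gene ends were 1000 bp wide, and 5 of each group were taken by the share of the member covered by H3K4me3 and then by chromosome, sorted as text, and position. Those on H3K4me3 lay at Ly96, a co-receptor of bacterial lipopolysaccharide, at Aspm and Zbtb41, which share a member, at Cacybp, at Eprs and at Sf3a2 with Plekhj1. Those off H3K4me3 included members at Wwc1, at Arf2, at H2ac4, and at the keratin genes Krt78 and Krt8. Of these, the members of Wwc1, Arf2 and H2ac4 were 200, 300 and 200 bases from H3K4me3, while that of the keratins was 54700 bases away.

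The promoters of the genes at members were described from the 300 bp windows, for 311 of the 371 genes with a touching member and 36 of the 44 with one not touching H3K4me3. The median share of G and C was 60.3% and 57.7%, and the median ratio of observed to expected CpG was 0.832 and 0.581. Over all 32851 windows the medians were 52.7% and 0.384. Over the 12116 windows on H3K4me3 with no succinyllysine region within 1000 bp they were 62.3% and 0.787. The medians of genes with a touching member lay nearer to these than those of the other genes did. The 32851 windows belong to 27025 genes, of which 17492 are protein-coding, whereas the 371 and 44 genes are all protein-coding. The part of this difference in the medians was not tested.

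Of the 9 motifs searched on both strands, the GC box was in 64.0% of windows of touching genes and 52.8% of those of the others, against 67.8% of H3K4me3 windows without succinyllysine and 35.7% of all windows. The ETS core was in 41.8% and 41.7%, against 31.4% and 16.9%. The cAMP response element was in 21 of 311 windows of touching genes (6.75%) and 0 of 36 of the others, against 3.16% and 1.79%. The E-box CACGTG was in 14.1% and 13.9%, against 10.1% and 7.15%, and the YY1 core ATGGCGG in 11.3% and 8.33%, against 8.23% and 4.05%. The TATA box was in 8.04% and 16.7%, against 6.20% and 13.6%. Shares of the CCAAT box were 35.1% and 44.4%, against 37.5% and 37.4%, those of the AP-1 site TGACTCA 4.18% and 5.56%, against 3.03% and 5.20%, and those of the NRF1 core 5.47% and 5.56%, against 5.48% and 2.71%. The CRE and the AP-1 site share their first letters, but a CRE contains no AP-1 match. None of these shares was tested, and the share over all windows includes genes that are not protein-coding.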

How the data were processed

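ChIP-seq of 16 samples (input, succinyllysine, H3K4me3 and H3K27me3, 2 per line) was deposited as 1 list of regions per antibody. The authors' deposited lists hold start and end positions and no height, score or value per sample. Reads were aligned with Bowtie2 2.2.3 to mm10, per the submitters' processing notes; no peak caller, threshold or pooling is named there. All starts end in 01 and all ends in 00, which fits 1-based inclusive positions in steps of 100 bp, and width is end minus start plus 1. Depth is unknown.

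Members and gene lists were chosen with earlier results of these data known. Touching means at least 1 shared base. Protein-coding genes (21887) and starts (32851 windows of 27025 genes) came from RefSeq tables for GRCm38.p6. Gene ends were taken within 1000 bp and neighbours within 5000 bp. Shares carry exact Clopper-Pearson 95% intervals, and 3 two-sided Fisher's exact tests were adjusted by the Benjamini-Hochberg method (threshold 0.05), with Python 3.11.15, SciPy 1.17.1 and pandas 2.3.3. The calculations were tested on simulated data. Named genes were up to 4 per list and group, by width, and those at the 5 widest members of each group. A few of these are left out of the text. Alternatives were other windows, widths, overlap rules, gene sets and starts.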

Additional observations from a re-analysis of the deposited data

How the results depend on the processing

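The share of members touching H3K4me3, 46.3%, was 44.8% with at least 50% of the member covered, 44.5% by its midpoint, 46.0% on autosomes and 46.8% without members within 1000 bp of H3K27me3. It moved past its interval to 52.5% when H3K4me3 within 1000 bp counted, 40.2% with H3K4me3 regions wider than their median, 50.9% for widths of 700 to 900 bp and 38.9% for 500 to 1100 bp. The gene end odds ratio stayed between 16.4 and 32.9 over 9 alternatives (largest adjusted p 3.75e-55), and the neighbour odds ratio between 0.291 and 0.614 over 5 (largest adjusted p 5.79e-06), all by Fisher's exact test. The GC box share was 59.7% (touching) and 35.3% (not touching, 6 of 17) for windows that a member overlapped. Midpoints within 250 bp of a start were 4.92% without divergent starts and 6.52% for genes with 1 start, alternatives chosen after seeing the data. The members left out for a divergent start included 0 of the 136 upstream ones, so that split is bound to the side on which the member lies. Apart from what an alternative changes by construction, the cause of these moves was not tested. No paired analysis was possible because the lists hold no values per sample, and for that reason no replicate could be left out.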

Other observations

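Of the 300 bp promoter windows that a member itself overlapped, 216 belonged to members touching H3K4me3 and 17 to members not touching it. The median ratio of observed to expected CpG was 0.814 and 0.277 in these windows, against 0.384 over all windows of the table. The AP-1 letters TGACTCA were in 8 of 216 (3.70%) and 4 of 17 (23.5%) of them, and in 5.20% of all windows. The cAMP response element was in 18 of 216 (8.33%) and 0 of 17. These counts were read after the shares for whole genes had been seen, and none was tested.

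Genes whose ends had a member but no H3K4me3 contact there included Uhrf1, Rbbp7, Ruvbl1 and Cdk7, which encode a reader of hemimethylated DNA, a histone chaperone, a helicase of chromatin remodelling complexes and the kinase of TFIIH. They were chosen after their values were seen. In all 4 the member lay upstream of the nearest start, and H3K4me3 began 100 bases away for Uhrf1, Ruvbl1 and Cdk7 and 400 bases away for Rbbp7.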
